A study of Drosophila melanogaster with 20 samples.

Results

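EcR, the receptor for the moulting hormone ecdysone, was compared on chromatin between the wing disc and the salivary gland of the fruit fly. The comparison consisted of every row of 1 of the authors' 3 deposited tables, 3463 sites of 3463 in the series, and 3459 of them had an adjusted p-value. Both tissues came from wandering female larvae raised at 25C, 6 hours before puparium formation, in which the tagged allele EcR-GFSTF stood over the deficiency Df(2R)BSC313 in a w background. The tagged allele was thus opposite a deleted stretch in both tissues alike, and wild-type EcR was not compared. The method was CUT&RUN, in which an antibody, here anti-Flag M2, brings a nuclease to the tagged protein and the DNA cut free beside it is sequenced. Fragments released into the supernatant and fragments kept in the pellet were separate libraries, with 2 replicates for each tissue and fraction and 8 anti-Flag libraries for wing and gland together. A minimum of 50 glands or 90 wings was dissected, so each library pools many animals. The labels do not say whether replicates were separate dissections, so the spread that the p-values rest on may be technical.

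Ecdysone drives the larval moults and the onset of metamorphosis, and EcR acts on DNA as a dimer with Ultraspiracle. A small set of early genes, among them Eip75B, br and Eip74EF, is known to answer the hormone directly, and their products pass the signal on to later genes. The 2 tissues have opposite fates: the wing disc goes on to evert and to make adult wing, while the gland secretes glue and is then destroyed by cell death and autophagy.

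The authors' deposited table gives for each site a mean normalised read count, a log2 fold change with its standard error (SE) and an adjusted p-value, and no value per library. A positive log2 fold change means more signal in the wing, and a site was called where the adjusted p of the authors' DESeq2 fit was under 0.05. The median site had a mean normalised read count of 9.59 (quartiles 5.58 and 20.1) and an SE of 0.59 by the authors' deposited table. The depth of single libraries is unknown. Beside the table stand 4 peak lists, each from merged replicates, with 1442 wing supernatant, 1545 wing pellet, 1174 gland supernatant and 936 gland pellet peaks. The peak names in the gland lists also carry the name of a merged wing IgG control, so a gland fold enrichment may be over the background of another tissue. More signal per cell and a larger share of cells with signal cannot be told apart in pooled tissue. EcR binding at a marker gene does not measure its expression, so the identity of the tissues could not be checked from these files.

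The table of all sites and the chromosome arms gave opposite balances. Of all sites, the authors' deposited table called 993 wing-higher, 28.7% of those tested, and 914 gland-higher, 26.4%, together 55.1%. On the arms, 2999 sites on 2L, 2R, 3L, 3R and X away from the centromeres, the authors' deposited table had 692 calls higher in the wing (23.1% of 2998 tested) and 895 higher in the gland (29.9%), together 52.9%. Each arm had more gland calls than wing calls, from 192 wing against 205 gland on 3L to 104 against 159 on 2R, by the authors' deposited table. The median log2 fold change was 0.17 on the arms and 0.46 over all sites by the authors' deposited table. With the values of the authors' deposited table centred on the arms' median, the arm sites split into 559 wing and 959 gland calls, and the full table into 818 and 979.

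Sites near centromeres were mostly higher in the wing. Of 375 such sites, taken as 2L beyond 22 Mb, 2R below 6 Mb, 3L beyond 23 Mb, 3R below 4 Mb and X beyond 22 Mb, the authors' deposited table called 272 (72.5%) wing-higher and 12 (3.20%) gland-higher, with a median of 1.70. On 3L it was 64 of 76 sites against 0 for the gland, and on 3R 117 of 159 against 1. The window of 2R stood apart, with 17 wing and 7 gland calls of 38 and the lowest value near any centromere by the authors' deposited table, -5.14 (SE 0.44) at 2R:5049586-5051716. In the gland pellet list the peak there had a fold enrichment of 199 and the peak of a nearby site 348, the highest of the 4 lists. The site of largest difference near the centromere of 2L was 3.96 (SE 0.89) and that of 3R 3.74 (SE 0.84) by the authors' deposited table.

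Chromosomes 4, Y and M were few in sites and differed from each other. Of 17 sites on chromosome 4, 5 were called wing-higher and 2 gland-higher, with a median of 1.15 by the authors' deposited table. The gland sites lay in Mpv17 (-1.90, SE 0.72, by the authors' deposited table) and in apolpp, the gene of the lipoprotein apolipophorin (-1.98, SE 0.61). The Y had 67 sites although the labels give the larvae as female, with a median mean count of 4.90, 24 wing-higher calls and 0 gland-higher calls by the authors' deposited table. No gland peak was on the Y, against 16 wing supernatant and 59 wing pellet peaks. All 5 mitochondrial sites were higher in the gland by the authors' deposited table, with a median of -5.60. The largest, M:1-15761, spanned most of that genome with a mean count of 74759 and a log2 fold change of -5.81 (SE 0.37), by the authors' deposited table. The share of template DNA from these regions in each tissue was not measured here, so the amount of DNA and the amount of binding cannot be told apart. It was not measured for stretches of the arms either, so the same limit holds there. The results below keep to the arms unless stated.

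**Figure D1:**
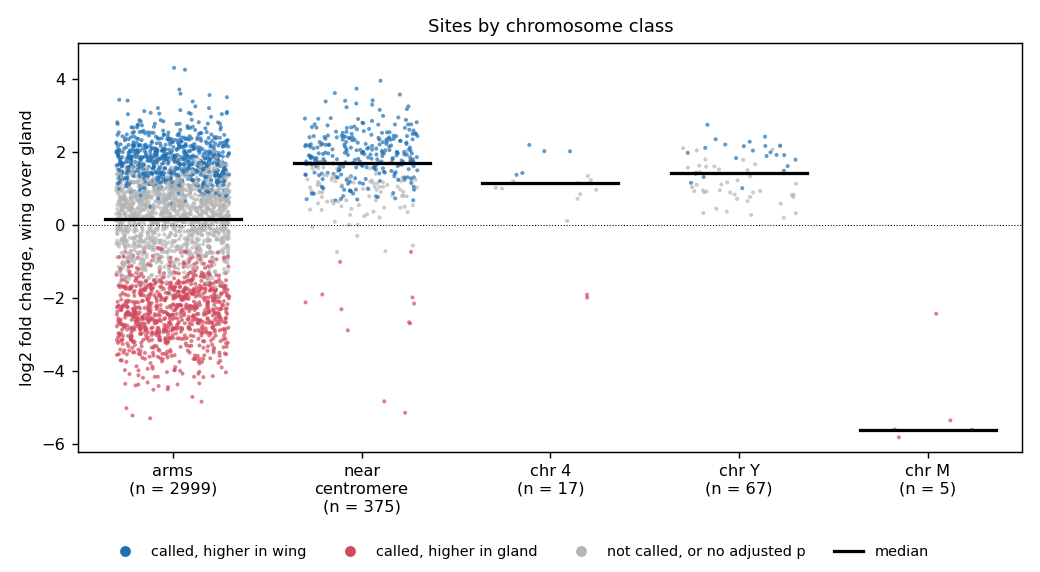
Log2 fold change of wing over gland (vertical axis) for every site, by chromosome class (horizontal axis); points are sites coloured by call, bars are medians. The arms hold both directions around a median of 0.17, sites near centromeres sit mostly above 0 with a median of 1.70, and the 5 mitochondrial sites lie between -5.81 and -2.42.

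Gland-higher sites showed the larger differences. Among called sites on the arms the median absolute log2 fold change was 1.79 for the wing, 3.46-fold, and 2.37 for the gland, 5.17-fold, by the authors' deposited table. Over 4-fold stood 234 of 692 wing sites (33.8%) and 584 of 895 gland sites (65.3%), and over 16-fold 2 wing and 28 gland sites, by the authors' deposited table. The extremes on the arms were 4.31 and -5.29 by the authors' deposited table. The share of sites called was higher at higher mean counts. Of the 750 arm sites with the lowest mean counts, up to 5.49, 22.3% were called by the authors' deposited table, and of the 749 tested sites with the highest, from 17.9, 75.7%. Among the latter wing calls outnumbered gland calls, 308 against 259, by the authors' deposited table. In the 3 lower groups gland calls led, by 85 against 82, 237 against 135 and 314 against 167, by the authors' deposited table. The mean is taken over the libraries of the fit, which may include the leg disc. A site high in both discs would then rank above one equally high in the gland alone. The balance by group therefore does not show whether direction depends on abundance.

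**Figure D2:**
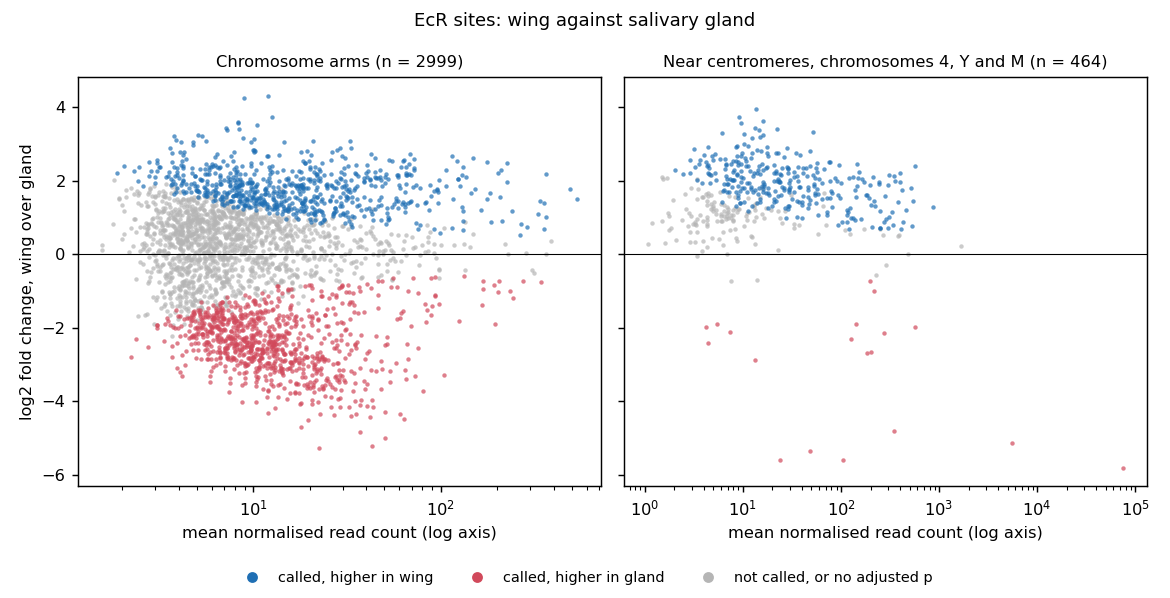
Log2 fold change of wing over gland (vertical axis) against the mean normalised read count (horizontal log axis), for 2999 arm sites (left) and the 464 other sites (right); points are sites coloured by call. Gland-higher sites on the arms reach -5.29 and wing-higher sites 4.31, and calls thin out at low counts.

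The peak lists were made from the same libraries, so their match with the calls is partly fixed in advance and is a description only. A site without a listed peak missed the peak threshold, which does not show absence of binding. Differences of presence and of height thus cannot be told apart. On the arms 382 sites overlapped a supernatant peak of both tissues, 886 of the wing alone, 726 of the gland alone and 1005 of neither. Of the gland-alone sites, 613 were called higher in the gland and 0 in the wing by the authors' deposited table. Of the wing-alone sites, 464 were called higher in the wing, 1 in the gland, and 421 were not called, by the authors' deposited table. At all 367 arm sites with a peak in both gland lists and in neither wing list, the authors' deposited table called the gland higher. Of the 535 sites with a peak in both wing lists and in neither gland list 378 were wing-higher, by the authors' deposited table.

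Sites with a peak in both tissues differed too. Of the 382, the authors' deposited table called 99 higher in the wing, 107 in the gland and 176 neither. At the 99 wing-higher sites the median fold enrichment of the peak, the authors' ratio over background, was 28.2 in the wing list and 7.01 in the gland list. At the 107 gland-higher sites it was 8.74 and 13.8. Fold enrichments of different lists are not on a common scale, so these medians stand side by side only.

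**Figure D3:**
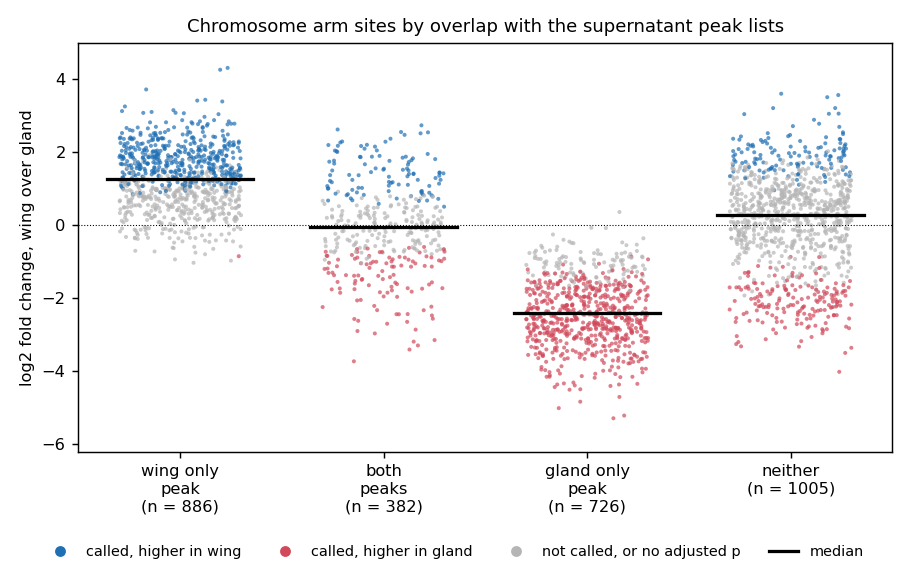
Log2 fold change of wing over gland (vertical axis) for arm sites, grouped by overlap of at least 1 bp with a supernatant peak of the wing, of both tissues, of the gland or of neither (horizontal axis); points are sites coloured by call, bars are medians. Sites with a gland peak alone have 613 gland calls and no wing call, and sites with both peaks hold calls in each direction.

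Gland-higher sites sat closer to genes. Inside a coding gene span lay 60.3% of the wing-higher arm sites, 80.7% of the gland-higher ones and 69.1% of those not called. Within 500 bp of an end of a span were 7.23%, 18.7% and 12.5%. Farther than 2000 bp from any coding span were 27.2%, 6.59% and 19.1%. Read the other way, of 393 arm sites within 500 bp of a span end the authors' deposited table called 50 wing-higher and 167 gland-higher, and of 516 sites farther than 2000 bp 188 and 59. Strand is not in the gene table used, and a start could not be told from an end. These are descriptions of sites, which are not replicates, and were not tested.

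The strongest wing-higher sites included several at ecdysone-inducible genes and several far from any gene. By smallest adjusted p among called arm sites with a mean count at or above the table's median, 1 site per gene, the first was in CG7720, 3R:18788400-18789226, with 2.62 (SE 0.29) by the authors' deposited table. Its fold enrichment was 50.6 in the wing supernatant list and 7.20 in the gland one. A site in Dyrk2, a protein kinase gene, had 2.66 (SE 0.31) by the authors' deposited table, with peaks in both wing lists (26.7 and 23.1) and in no gland list. In pio, which codes for a protein of the apical extracellular matrix, the value was 1.67 (SE 0.22, adjusted p = 3.31e-12, by the authors' deposited table). Distances are from the midpoint of a site to the gene span. The ecdysone-inducible ImpE1 had a site 3137 bp outside its span with 2.53 (SE 0.34) and Eip63E, a cyclin-dependent kinase gene, one at 1366 bp with 2.53 (SE 0.35), by the authors' deposited table. The second of these also lay 1704 bp from ImpE2. A site in LRP1, a lipoprotein receptor gene, had 2.14 (SE 0.30) and one in Eip78C, a nuclear receptor gene, 1.95 (SE 0.28) by the authors' deposited table. Of the 15 wing sites chosen this way 5 had no coding gene within 5000 bp, and CG12078, CG32447 and frm were 983, 3518 and 2737 bp away from theirs.

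Most of the strongest gland-higher sites lay inside genes, as did most gland-higher arm sites. All 15 had an adjusted p listed as 0, the limit of printing, and 12 lay in a coding span, beside 80.7% of all gland-higher arm sites. Inside Eip75B the site 3L:18023657-18024007 had -3.98 (SE 0.33) by the authors' deposited table, with a peak of 22.5 in the gland supernatant list and none in either wing list. A site in BNIP3, which codes for a receptor that sends mitochondria to autophagy, had -3.41 (SE 0.29), and one in scramb1, a phospholipid scramblase gene, -5.01 (SE 0.44), by the authors' deposited table. The site in cwo, a repressor of the circadian clock, had -4.36 (SE 0.40), and that in Fatp3, of the fatty acid transport family, -4.36 (SE 0.42), by the authors' deposited table. Others were in Evi5 (-3.98, SE 0.38), in mub, an RNA-binding protein gene (-2.70, SE 0.25), in bdg (-4.16, SE 0.40) and in Cph, a zinc finger gene (-4.43, SE 0.43), by the authors' deposited table. The overlapping Tpst, a tyrosine sulphotransferase gene, and CG46311 shared a site of -3.73 (SE 0.33), and CG33995, CG44000 and CG44001 one of -4.49 (SE 0.41), by the authors' deposited table. In 11 of the 15 a gland list had a peak and neither wing list did, beside 749 of all 895 gland-higher arm sites.

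The leg disc, in the same authors' fit, gave wing against leg values for these sites. Between wing and leg 49 of 3327 sites were called, 1.47%, with 19 (0.571%) higher in the wing and 30 (0.902%) in the leg by the authors' deposited table. Of the 15 wing-higher sites 1 was called, LRP1, higher in the wing than in the leg (1.05, adjusted p = 0.0103, by the authors' deposited table). The other 14 had wing over leg values of -0.22 to 0.80 and, side by side, leg over gland values of 1.19 to 2.70, by the authors' deposited table. None of the 15 gland-higher sites was called between wing and leg (-0.93 to 0.19), and their leg over gland values ran from -4.20 to -2.03, by the authors' deposited table. The comparisons share libraries, and the sites were chosen by their difference between wing and gland. That choice can shift their wing over leg values, so the values stand beside each other only.

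Genes of the ecdysone response held many sites of both directions. Of the 28 genes of that list, 22 had a site in or within 2000 bp of their span, 197 sites in all, all on the arms. Of these, 45 (22.8%) were called wing-higher and 80 (40.6%) gland-higher by the authors' deposited table, beside 23.1% and 29.9% of all arm sites, with a median of -0.59 beside 0.17. Early genes first: Eip75B, an early nuclear receptor gene, had 57 sites, the most of any gene, with 16 higher in the wing, 27 in the gland and 14 not called by the authors' deposited table. In order along the gene its 43 called sites fell into 11 runs of 1 direction, the longest of 9 gland-higher sites, by the authors' deposited table. After centring 39 sites were called, 11 wing-higher and 28 gland-higher, in 9 runs, the longest of 14 gland-higher sites, a comparison chosen after seeing the data. The highest value, 3.08 (SE 0.47) at 3L:18018976-18019329, lay under 5 kb from the lowest, -3.98, by the authors' deposited table. The most abundant Eip75B site, 3L:17964478-17965802 with a mean count of 364, had -0.01 (SE 0.24, adjusted p = 0.977) by the authors' deposited table, an interval within 2-fold.

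At br, the early gene of a zinc finger factor family, 8 of 13 sites were higher in the gland and 3 in the wing by the authors' deposited table. The lowest was -3.29 (SE 0.38) at X:1610021-1610627 by the authors' deposited table. The supernatant peak lists had fold enrichments of 5.82 (wing) and 35.5 (gland) there. The highest, 1.72 (SE 0.33), reached over the edge of the br span, with its midpoint 465 bp outside, by the authors' deposited table. All br sites also lay inside the overlapping Mur2B. Eip74EF, an early gene of an ETS factor, had 5 gland-higher sites of 18 and no wing-higher one, from -1.87 to -0.62 by the authors' deposited table. E23, the gene of an ecdysone-induced transporter, had 3 gland-higher sites of 5, with -3.48 (SE 0.46) as the lowest, by the authors' deposited table. It also had 1 wing-higher site there, of 0.72 (SE 0.30), which lost its call after centring.

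The receptor gene itself was mostly gland-higher. All 8 EcR sites were called by the authors' deposited table, 7 higher in the gland and 1 in the wing. Of all arm sites 29.9% were gland-higher and 23.1% wing-higher. The EcR sites lay just past the 6 Mb limit of the 2R window near the centromere, and a window 1 Mb wider would include them. The gland-higher values ran from -4.50 (SE 0.65) to -1.30 (SE 0.31), and the wing-higher site, 2R:6148044-6148478, had 1.24 (SE 0.54, adjusted p = 0.0428), by the authors' deposited table. That wing-higher call was lost after centring and at an adjusted p under 0.01. A single EcR site, 2R:6120583-6120854, carried a peak in all 4 lists (12.6 in the wing and 18.1 in the gland supernatant), and it was the gland-higher site of smallest difference, by the authors' deposited table. EcR lies on 2R, the arm of the tagged allele and of the deficiency, which both tissues carry.

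Other nuclear receptor genes of the cascade differed among themselves. Hr4 had 7 wing-higher and 6 gland-higher sites of 19 by the authors' deposited table, in 9 runs, from 1.77 (SE 0.33) to -2.98 (SE 0.49), and 5 and 7 after centring. Its strongest site, X:1947901-1948584, had a mean count of 388 and a log2 fold change of 0.36 (SE 0.25, adjusted p = 0.203) by the authors' deposited table. Eip78C had 4 in each direction of 11, from 2.59 (SE 0.41) to -2.50 (SE 0.40), by the authors' deposited table, and 3 and 4 after centring. Hr3 had 3 gland-higher sites of 9 and Hr78 2 of 2 (-2.58 and -2.06), with no wing-higher site at either gene by the authors' deposited table. Neither ftz-f1 site was called (-1.20 and -1.16), by the authors' deposited table, and the first was gland-higher after centring.

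**Figure D4:**
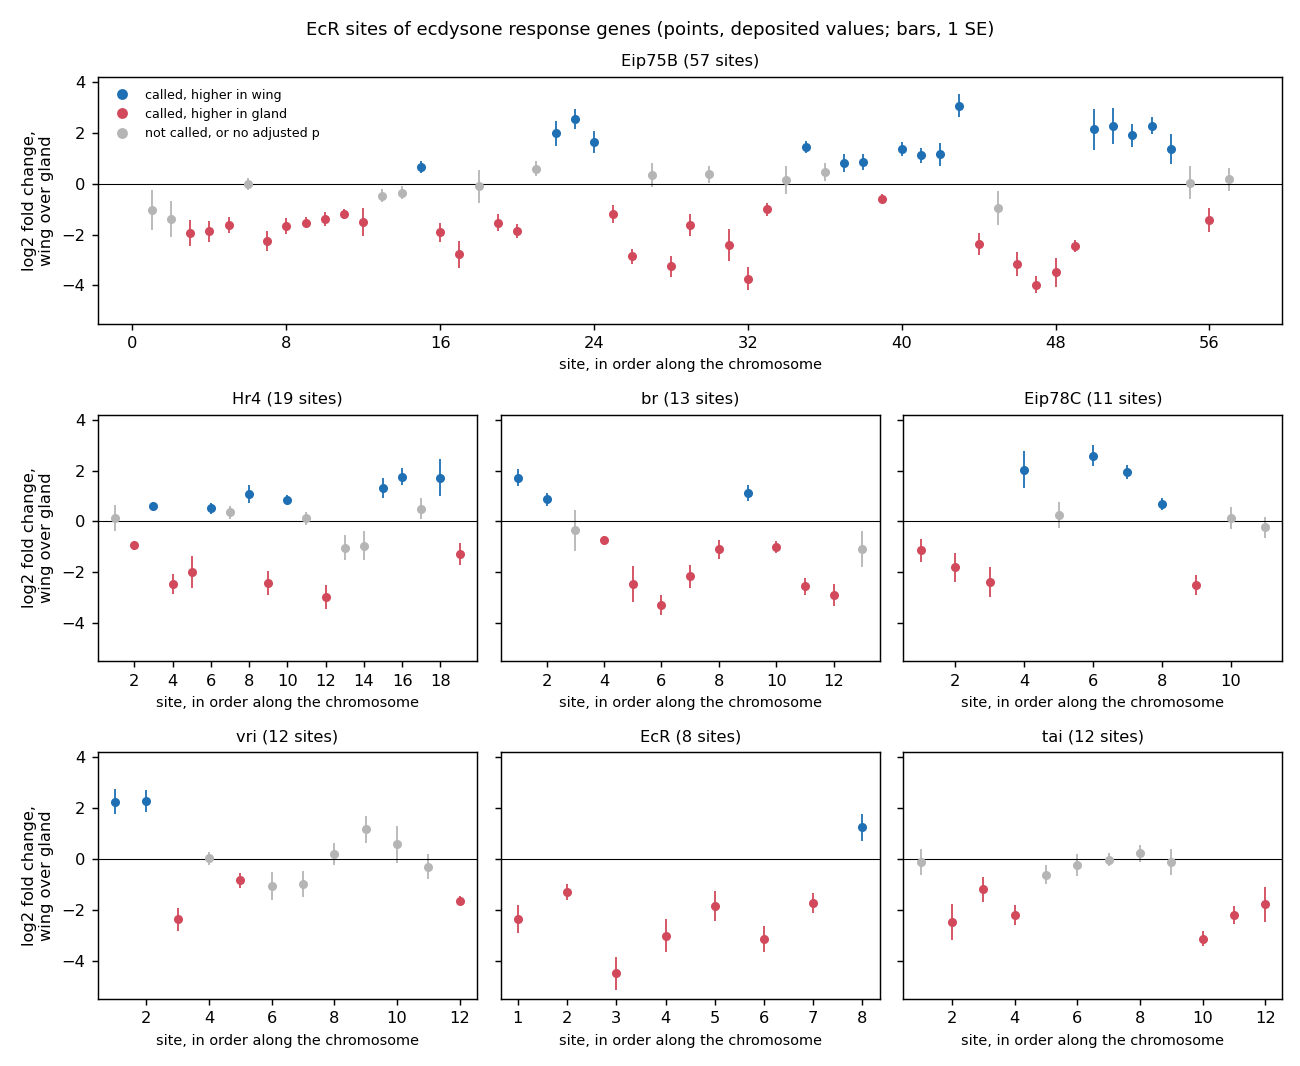
Log2 fold change of wing over gland (vertical axes, with bars of 1 SE) for each site of 7 genes, in order along the chromosome (horizontal axes, site number, not distance); colours give the call. Eip75B alternates between stretches of gland-higher and wing-higher sites, and 7 of 8 EcR sites and all 6 called tai sites lie below 0.

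The ImpE genes, which ecdysone induces in imaginal discs, were wing-higher at each of their sites. All 4 sites of ImpE2 were called higher in the wing by the authors' deposited table (1.46 to 2.66), as were both of ImpE1 (1.30 and 1.47) and the single one of ImpE3 (1.87). Of all arm sites 23.1% were wing-higher. The ImpE2 sites of 1.46 and 2.53 also counted for Eip63E. The ImpE1 site of 1.30 lost its call after centring. Blimp-1, a repressor that times the response, had 3 sites in or near its span, at 1.33, 1.76 and 2.67, all wing-higher by the authors' deposited table. The strongest peak of the wing supernatant list, with a fold enrichment of 111, belonged to another Blimp-1 neighbour with 2.17 (SE 0.32) by the authors' deposited table. Eip63F-1, of a calcium-binding protein, was the reverse, with -3.33 (SE 0.46) and -3.21 (SE 0.64) at its 2 sites, by the authors' deposited table. ImpL2, of an insulin-binding protein, had 1 gland-higher site (-2.83, SE 0.45), by the authors' deposited table.

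Genes of EcR cofactors were gland-higher where called, and genes of juvenile hormone signalling mostly so. At 5 of 16 cofactor genes 19 sites were found, 12 of them (63.2%) higher in the gland and 0 in the wing by the authors' deposited table, beside 29.9% and 23.1% on the arms, with a median of -1.52. The coactivator gene tai had 6 of these among 12 sites, the lowest of -3.14 (SE 0.30), by the authors' deposited table. Both brm sites (-2.71 and -2.30), at the gene of a chromatin remodelling ATPase, and a site in the corepressor gene Smr (-1.30, SE 0.46) were called too, by the authors' deposited table. Juvenile hormone genes had 12 gland-higher (48.0%) and 4 wing-higher sites of 25, by the authors' deposited table. All 3 sites in gce, a juvenile hormone receptor gene, were gland-higher, at -4.40, -3.50 and -3.10 by the authors' deposited table. At Kr-h1, the main target gene of juvenile hormone, 1 of 9 sites was higher in the wing (1.44, SE 0.35) and 1 in the gland (-2.85, SE 0.39), by the authors' deposited table. The tai, br and Kr-h1 sites count in the ecdysone list as well.

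Ecdysone metabolism and the heat shock cluster had few sites. At phtm, which codes for an enzyme of ecdysone synthesis, all 3 sites were higher in the wing (1.83, 2.05 and 2.36), and at spok, of another such enzyme, the single site was higher in the gland (-1.98, SE 0.77), near a centromere, by the authors' deposited table. Neither site at Oatp74D, the gene of the ecdysone importer, was called (0.17 and 1.00), by the authors' deposited table. Of 5 sites at the small heat shock genes of 67B, 1 was called, in Hsp27 (1.09, SE 0.44, by the authors' deposited table), and it lost the call after centring.

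**Figure D5:**
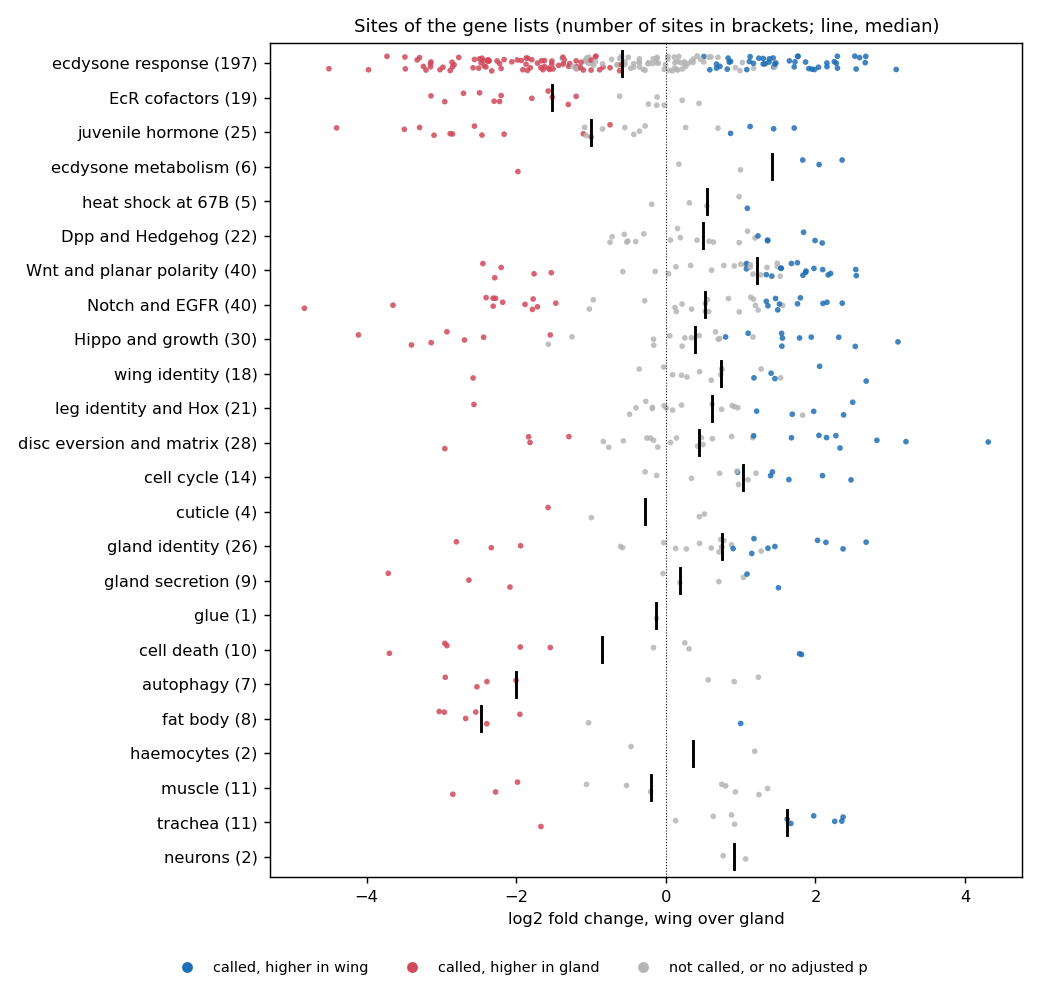
Log2 fold change of wing over gland (horizontal axis) for the sites of 24 gene lists (vertical axis, number of sites in brackets); points are sites coloured by call, lines are medians. EcR cofactor sites have 12 gland calls and no wing call, Dpp and Hedgehog sites 6 wing calls and no gland call.

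Disc signalling lists are read beside the arms, where 23.1% of sites were wing-higher and 29.9% gland-higher. Genes of the Dpp and Hedgehog pathways had 6 wing-higher (27.3%, a share near that of the arms) and 0 gland-higher sites of 22, by the authors' deposited table. Those of Wnt signalling and planar polarity had 17 (42.5%) and 5 (12.5%) of 40, by the authors' deposited table. Of the first, 4 were in tkv, a Dpp receptor gene (1.36 to 2.09), and 2 in dally, a glypican gene (1.23 and 1.84), by the authors' deposited table. Of the second, nkd, an antagonist of Wnt signalling, had 5 (1.34 to 2.17), and the receptor gene fz2 had 3 wing-higher sites and 1 gland-higher of -2.45 (SE 0.81) by the authors' deposited table. After centring 1 tkv call and 4 of the Wnt and polarity calls were lost. Notch and EGFR genes had 10 wing-higher (25.0%) and 12 gland-higher (30.0%) of 40, shares near those of the arms, by the authors' deposited table. Of those 12, 6 were in Raf, the kinase gene of the MAP kinase cascade (-4.83, SE 0.54, the lowest), and 4 in aop, an ETS repressor gene, by the authors' deposited table. With sites up to 5000 bp away the Notch and EGFR list turned to more wing calls than gland calls, by the authors' deposited table. Growth genes had 10 wing-higher (33.3%) and 7 gland-higher (23.3%) sites of 30 by the authors' deposited table, and 9 of each after centring. Of these, ex of the Hippo pathway had 2 wing-higher (1.55 and 2.53), foxo, of insulin signalling, 3 in each direction, and a site 1109 bp from mTor, the growth kinase, and nearest to Ube4B, -4.11 (SE 0.47), by the authors' deposited table.

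Lists of disc identity and eversion genes are read beside the same arm shares, 23.1% wing-higher and 29.9% gland-higher. Wing identity genes had 5 wing-higher sites (27.8%) and 1 gland-higher (5.56%) of 18 by the authors' deposited table. These shares include 2 sites off the arms, both in ap and both wing-higher, so they are not shares of arm sites. Of the wing-higher sites 3 lay in hth, a homeobox gene (1.18 to 2.68), and 2 in ap, the dorsal selector gene, near the centromere of 2R, by the authors' deposited table, and 1 hth call was lost after centring. Leg identity and Hox genes had 5 (23.8%) and 1 (4.76%) of 21, among them sites in Antp (1.69) and Ubx (2.50), by the authors' deposited table. Disc eversion and matrix genes had 9 (32.1%) and 4 (14.3%) of 28, by the authors' deposited table. Of these, Ppn, of the matrix protein papilin, had 3 wing-higher sites (the highest 4.31, SE 0.76) and a gland-higher one (-1.82, SE 0.65), and Sb, a protease gene, 2 wing-higher (2.33 and 2.82), by the authors' deposited table. Cell cycle genes had 6 wing-higher (42.9%) and 0 gland-higher of 14, 4 of them in E2f1, which drives S phase, by the authors' deposited table. Of 4 cuticle sites 1 was called, in Cht5, a chitinase gene (-1.57, SE 0.48), by the authors' deposited table.

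Cell death genes had 5 gland-higher (50.0%) and 2 wing-higher sites of 10, and autophagy genes 4 (66.7%) and 0 of 6 tested, by the authors' deposited table, beside 29.9% and 23.1% on the arms. The death inhibitor gene Diap1 had 2 of the gland-higher sites (-2.93 and -1.55) and a wing-higher one (1.79), and the single call at hid, which promotes death, was wing-higher (1.81), by the authors' deposited table. The sites of Dark, the adaptor of the apoptosome, were gland-higher (-3.70 and -2.96, the second shared with RhoGEF2), and so were single sites at Atg5 (-2.53), Atg7 (-2.39), Atg1 (-2.00) and Atg13 (-2.95), by the authors' deposited table. Genes of gland identity had 9 wing-higher (34.6%) and 3 gland-higher (11.5%) of 26, the latter at fkh (-2.80, SE 0.48), the master gene of the gland, sens (-2.33) and hry (-1.94), by the authors' deposited table. The wing-higher sites were at Btk (4), hth (3), trh (1) and CrebA (1), genes without a gland-higher site, by the authors' deposited table. The hth sites count in this list as well. Secretion genes had 2 (22.2%) and 3 (33.3%) of 9 by the authors' deposited table, and 0 and 3 after centring. Both sites of Pgant4, a glycosyltransferase gene, were gland-higher (-3.71 and -2.63), by the authors' deposited table. Of the 16 glue genes 1 had a site, Sgs1, which was not called (-0.13, SE 0.68, by the authors' deposited table).

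Marker genes of other cell types that a dissection could carry were read beside the same arm shares. Fat body genes had 1 wing-higher site (12.5%) and 6 gland-higher sites of 8 by the authors' deposited table, the latter at Fbp2 (-3.03, SE 0.54), Lsp2 (-2.68, SE 0.68), srp, a GATA factor gene (-2.96, SE 0.45), and others. Muscle genes had 3 gland-higher sites of 11 (27.3%, near the share of the arms), in Mef2 and zfh1, and tracheal genes 6 wing-higher (54.5%) and 1 gland-higher (9.09%) of 11, with 3 of the wing-higher ones at pio, by the authors' deposited table. Neither of the 2 haemocyte sites and neither of the 2 neuronal sites was called. Whether fat body, muscle or tracheal cells were in the dissections was not tested.

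At the level of genes, 1898 coding genes had a site on the arms in or within 2000 bp of their span. Of these, 305 had wing-higher calls only, 835 gland-higher calls only, 89 both and 669 none, by the authors' deposited table. A site counted for every coding gene in reach, so overlapping or neighbouring genes share sites and these are not counts of separate sites. Of the 310 genes with at least 2 called sites, 28.7% had both directions, by the authors' deposited table. Most wing-higher sites after Eip75B belonged to brat, a translational repressor gene (14 of 20, with 1 gland-higher), nmo, a kinase gene (8 of 14, with 1), and Hr4, by the authors' deposited table. Among genes with gland-higher sites alone, Cph, Raf, beat-Ib and tai had 6 each, by the authors' deposited table.

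Genes with both directions have a gap between called values by their selection, and are listed here by its size. By the gap between their highest and lowest called site the first was Bicra, with 2.05 (SE 0.64) and -5.29 (SE 0.71) by the authors' deposited table, the latter in Cul5, a ubiquitin ligase gene, just outside the Bicra span. Eip75B followed, then the overlapping Glut4EF and CG46467 (2.03 and -4.15), Ppn, and msi, an RNA-binding protein gene (4.26 and -1.76), by the authors' deposited table. Pvf3, of a growth factor, had 2.16 and -3.78, and Sdc, of the proteoglycan syndecan, 1.87 and -3.60, by the authors' deposited table. The closest sites of opposite direction in the 89 genes were a median of 4819 bp apart, and under 1000 bp in 11 genes, of which 6 kept both calls after centring. In brat they were 649 bp apart, with 1.22 and -2.96 by the authors' deposited table.

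A small group of sites had an interval within 2-fold, set site by site without adjustment for the number of sites. At 101 sites, 2.92% of those tested, the 95% interval of the log2 fold change, from its SE, lay within -1 and 1, that is within 2-fold, by the authors' deposited table. Of these, 97 were on the arms and 81 had a supernatant peak in both tissues. Their median mean count was 46.2, against 6.30 for all sites not called by the authors' deposited table. Of the 1552 sites without a call, 98 were bounded in this way. After Hr4 and Eip75B the most abundant were Eip74EF (-0.50, SE 0.25, mean count 314), a site 2281 bp from CG33687 (-0.43, SE 0.23), vri, a bZIP repressor gene (0.03, SE 0.26), one 2149 bp from Rh5 (0.02, SE 0.29), and Kr-h1 (0.26, SE 0.27), by the authors' deposited table. The Eip74EF and CG33687 sites were called gland-higher after centring. At vri the bounded site stood between gland-higher sites of -2.38 (SE 0.47) and -0.84 (SE 0.29), with 2 wing-higher sites (2.25 and 2.29) beyond the first, by the authors' deposited table.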

How the data were processed

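Wing and gland anti-Flag CUT&RUN libraries were compared through the authors' deposited tables and peak lists, since no counts per library were among the files used. A count test had been planned, and the authors' DESeq2 adjusted p-values took its place. Per the submitters' processing notes, the build was dm6 and the tools were MACS2 2.1.2, DESeq2, R 3.5.2, bedtools 2.26, Picard 2.2.4, SAMtools 1.9 and Bowtie2 2.3.4.1. The peak lists hold the fold enrichment, a ratio over the control, the −log10 q and the summit position, as the authors deposited them from merged replicates. The peak names, read as such, refer to trimmed reads without duplicates and to the range 20 to 120, taken here as fragment lengths. The tables hold a mean normalised count per site (a signal), a log2 fold change with its SE, a Wald score and p-values, as deposited by the authors. The fold changes of the 3 deposited tables were additive (median absolute deviation 1.78e-15), as in 1 fit over all tissues, while its libraries and covariates are not stated there. The depth of the single libraries is unknown, and the deposited SE gives the precision. The 8 IgG libraries were not analysed here.

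Sites were matched to the coding genes of a RefSeq gene table (13962 of 17872 genes), whose spans carry no strand or exons here, with Python 3.11.15, pandas 2.3.3, numpy 2.4.6, scipy 1.17.1 and matplotlib 3.10.9. Distances run from the midpoint of a site. A site belonged to every gene whose span held it or lay within 2000 bp, and was named after the nearest gene within 5000 bp. Overlap with a peak took at least 1 bp. The 24 gene lists (402 of 403 entries matched) and the sites named were chosen with earlier results of these data known. Named sites were the 15 of smallest adjusted p in each direction, ranked by the Wald score where adjusted p was listed as 0, at 1 site per gene, and the bounded sites of highest mean count. Centred values were the log2 fold changes less the arms' median of 0.17, with a normal p from the deposited SE and Benjamini-Hochberg adjustment. The step is approximate. It was run on simulated data in which few sites changed, at random up or down, so that the median recovers the shift by design. With 52.9% of tested arm sites called here, that run does not show that the arms' median stands for no difference. The alternatives were thresholds, a minimum fold, filters, centring, windows, overlaps and distances. Centring of the runs of calls, of neighbouring sites and of the closest opposite sites was chosen after seeing the data.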

Additional observations from a re-analysis of the deposited data

How the results depend on the processing

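The balance of calls over the whole table depended on the setting. Wing calls made up 52.1% of calls as deposited, 45.5% after centring, 43.6% on the arms alone, 36.8% on the arms after centring and 45.1% at an adjusted p under 0.01, where wing calls fell to 628 and gland calls to 766. Among sites with a mean count at or above the median there were 1259 calls, 564 of them gland-higher, and wing calls made up 55.2%. After readjusting the p-values 569 were gland-higher, and wing calls made up 56.0%. That filter uses the mean over the libraries of the fit, so it may itself favour 1 direction. With centromere windows 1 Mb wider the wing share near centromeres was 61.4%. With peaks of −log10 q of 10 or more, 98.8% of gland-only sites were gland-higher, 70.6% of wing-only sites wing-higher and 33.5% of sites with both peaks gland-higher. With the pellet lists these shares were 92.0%, 56.3% and 36.8%, and 20.4% of sites with both peaks were wing-higher. With overlap of at least 50% of the site, sites with both peaks were 12.3% wing-higher and 36.9% gland-higher. At an adjusted p under 0.01, 0 of the 30 named sites differed between wing and leg. The cause of these shifts was not tested. Of 299 called sites that are named or belong to a list, 236 kept their call at 0.01 and 274 after centring, and none reversed. Of 48 counts over the lists, 9 moved by over 1.5 times with sites inside the span only, where the secretion list changed sides, and 10 with sites up to 5000 bp away, where the Notch and EGFR list did. No paired analysis was possible because the tables hold no values per library, and for that reason leaving out a replicate, a replicate block and TMM scaling were not run. The search for binding motifs was not run, since no genome sequence was used here. Sites of low mean count limit what can be bounded.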

Other observations

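Called sites close to each other on an arm mostly had the same direction, by the authors' deposited table. Of 204 neighbouring pairs up to 1000 bp apart 190 had the same direction (93.1%), of 277 pairs between 1000 and 5000 bp 218 (78.7%), of 273 pairs between 5000 and 20000 bp 194 (71.1%), and of 828 pairs farther apart 485 (58.6%). After centring the shares were 95.2%, 78.7%, 73.1% and 61.4%. Neighbouring sites can share fragments and are not independent, and no test was made.

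Opposite calls at sites under 1000 bp apart included brat (1.22 and -2.96, 649 bp) and CG12078 (2.29 and -1.65, 676 bp), by the authors' deposited table, and both pairs kept their calls after centring. The closest pairs, in Sarm (1.34 and -2.00, 296 bp) and in Hr4 (0.51 and -1.99, 454 bp), and the pair in Eip78C (0.68 and -2.50, 963 bp) lost their wing-higher call after centring. The centred values of neighbours, pairs and runs were chosen after seeing the data.

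Of the 5 strongest wing supernatant peaks, 4 were at sites called wing-higher by the authors' deposited table, with fold enrichments of 111, 106, 87.4 and 83.1 and log2 fold changes of 2.17, 1.18, 0.83 and 1.69. The other, of 95.8, was the Hr4 site that was not called. Away from the mitochondrial genome and the centromeres the strongest gland supernatant peak, of 59.3 in CG43389, was gland-higher with -0.74 (SE 0.24) by the authors' deposited table.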
